A study of Homo sapiens with 9 samples.

Results

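The genes described here are 27 genes of cholesterol synthesis, cholesterol transport and the control of both by SREBP2, in the human hepatocellular carcinoma line Huh7. They were taken by gene name from a deposited table of 27421 genes, and all 27 were found. Each was measured in 9 libraries of 3 groups: 3 libraries of Huh7 cells named shZMAT2-1, 3 named shZMAT2-2 and 3 named control. The names give both arms as knockdowns of ZMAT2 by short hairpins. The labels name neither the construct of the control cells nor the time after knockdown. ZMAT2 belongs to the splicing machinery, and the series set out to learn whether its role in liver cancer runs through mRNA splicing. Values are FPKM (fragments per kilobase of transcript, relative to the size of the library) from strand-specific poly(A) RNA sequencing, so they are levels per gene and do not separate isoforms. Whether the 3 libraries of a group are separate cultures is not in the labels, and p-values therefore cover only the spread between these samples, which may be technical.

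Cells make cholesterol from acetyl-CoA by way of mevalonate, isoprenoid diphosphates, squalene and lanosterol, and the liver is a main site of this synthesis. The membrane-bound transcription factor SREBP2, encoded by SREBF2, raises transcription of most of these enzymes when sterols are scarce. Its escort protein SCAP carries it from the endoplasmic reticulum to the Golgi for cleavage, and the INSIG proteins hold SCAP back when sterols are plentiful. INSIG1 is itself a target of SREBP2, which makes its mRNA level part of a feedback loop. Cholesterol that enters by endocytosis leaves the lysosome through NPC2 and NPC1.

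The libraries held 18430000 to 23740000 fragments, a depth recovered from the values, and 3 fragments on a transcript of 1 kb were worth 0.126 to 0.163 FPKM. Genes of the mitochondrial genome, 13 in the table, took 8.25%, 16.4% and 7.70% of the fragments in shZMAT2-1 replicates 1, 2 and 3, and 26.99%, 14.5% and 16.6% in the shZMAT2-2 replicates. They took 7.86%, 43.2% and 8.28% in the control replicates. Control replicate 2 stood apart from the other controls by this measure, and results are given with and without it. All 9 markers of hepatocytes and hepatocellular carcinoma were present, between 14.2 FPKM for HNF4A and 2571 FPKM for ALB in single libraries. Markers of other cells were at most 0.323 FPKM, apart from LYZ at 43.6 to 131 FPKM, PECAM1 at 0.662 to 1.70 FPKM and PDGFRB at 0.434 to 1.57 FPKM. The targeted gene matched the labels: ZMAT2 had 15.2, 12.8 and 13.2 FPKM in shZMAT2-1, 22.1, 20.3 and 20.8 FPKM in shZMAT2-2, and 37.5, 32.8 and 39.2 FPKM in control. No ZMAT2 value of a knockdown library reached a control value (exact two-sided permutation p = 0.0119 for 6 libraries against 3, the smallest that 84 assignments allow).

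All 27 genes were expressed at 1 FPKM or more in at least 3 libraries, the filter for testing, which 11245 genes passed. Over the 9 libraries, 5 averaged at least 50 FPKM: ACAT2 at 67.2, DHCR7 at 65.8, MSMO1 at 63.4, HMGCS1 at 60.2 and EBP at 58.3 FPKM. These 5 means differ by less than the range between libraries of any of the 5 genes. A further 12 averaged between 20 and 50 FPKM, and 10 averaged under 10 FPKM. The 3 lowest were GGPS1 at 4.41, HSD17B7 at 2.92 and CYP51A1 at 1.49 FPKM. Among all genes tested, 17 of the 27 lay at or above percentile 80 of mean level. The level of CYP51A1 may be incomplete, because 79.4% of its exon bases are shared on the same strand with 2 other genes in GENCODE release 29. For GGPS1 that share was 37.3%. ACAT2 shares 52.3% of its exon bases with genes on the opposite strand, and the strand setting of the counting is not stated. FDPS and HSD17B7 have pseudogene copies with which reads could be split.

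**Figure D1:**
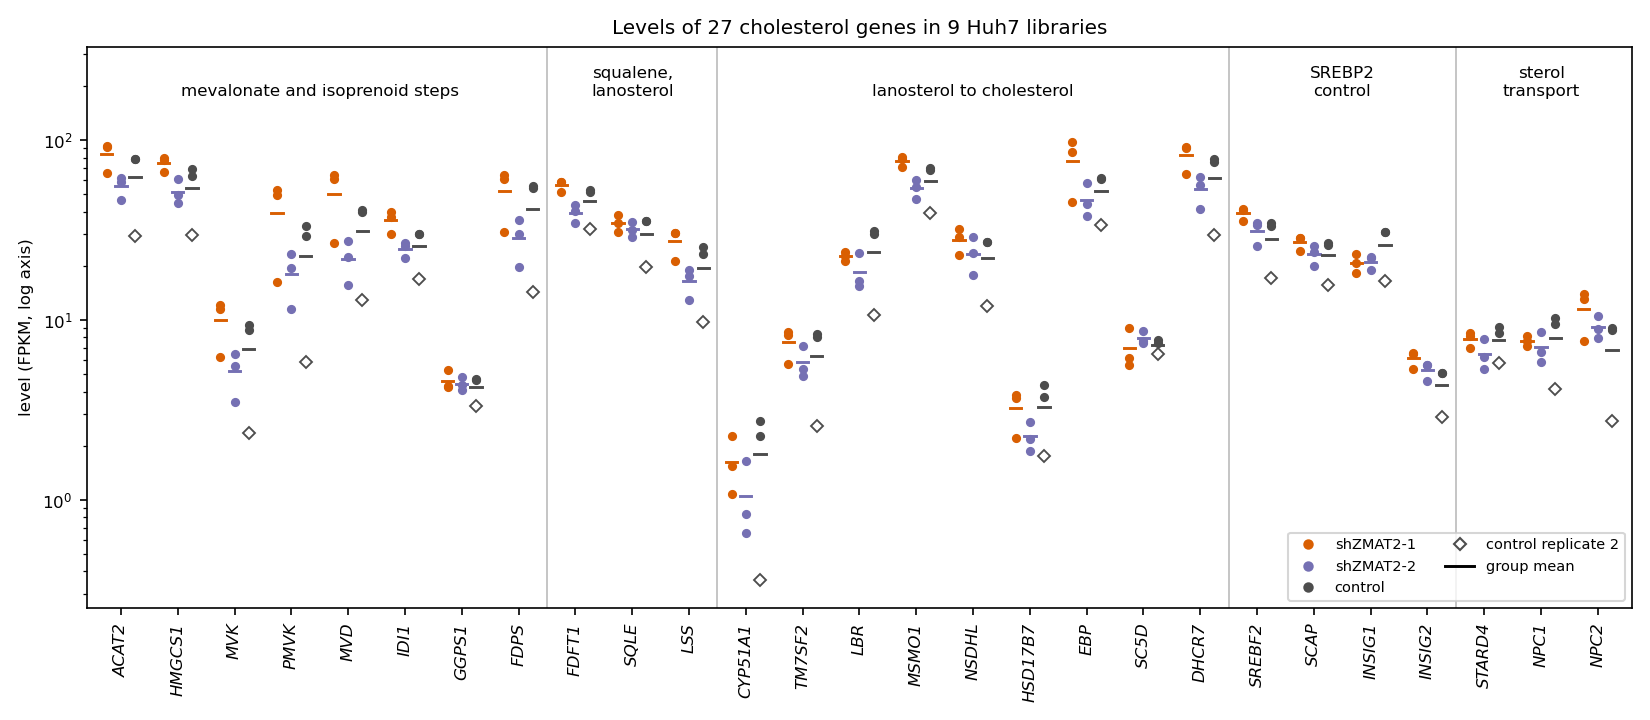
Level of each of the 27 genes in FPKM (log axis), by role, with 1 point per library and a bar for the mean of each group of 3. Open diamonds are control replicate 2, which was the lowest of all 9 libraries for 25 of the 27 genes. The other 2 controls lie near or within the range of the knockdown libraries for most genes.

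The first comparison asks whether the level of these genes moved with loss of ZMAT2. Summed over the 20 synthesis enzymes, the level was 852, 616 and 854 FPKM in shZMAT2-1, 418, 542 and 574 FPKM in shZMAT2-2, and 720, 312 and 712 FPKM in control. The group means were 774 ± 137 FPKM in shZMAT2-1, 512 ± 82.4 FPKM in shZMAT2-2 and 581 ± 233 FPKM in control (SD, n = 3 each). The control libraries therefore spanned more than the difference between any groups, and both arms overlapped them. In bulk samples, fewer cells of a type and less RNA per cell cannot be told apart.

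With limma on log2(FPKM + 1) over all genes, 0 of the 27 genes passed a Benjamini-Hochberg adjusted p of 0.05 for the mean of both arms against control, where 0.542% of all genes tested did. The same count was 0 for shZMAT2-1 against control, with 0.08% of all genes, and 0 for shZMAT2-2 against control, with 0.587%. At an unadjusted p under 0.05 it was also 0 in these 3 comparisons, against 6.93%, 5.76% and 7% of all genes tested. No other tool was run, since the values are not counts. The standard errors of the 27 genes in the mean contrast were 0.15 to 0.54 on the log2 scale, with a median of 0.27, so changes of the size estimated here were mostly within the error. The 2 arms share their controls, and their values are therefore set side by side only. In shZMAT2-1 the median estimate of the 27 genes was 0.41 (all genes tested, 0.16), and 25 of 27 estimates were above 0 (all genes, 72.9%). In shZMAT2-2 the median was -0.08 (all genes, 0.05), and 10 of 27 estimates were above 0 (all genes, 58.4%). For the mean of both arms it was 0.17 (all genes, 0.10), with 21 of 27 estimates above 0 (all genes, 71.8%).

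The direction of the median for the mean of both arms rested on control replicate 2. Without that library the median of the 27 genes was -0.20 for the mean of both arms (all genes, -0.11), 0.07 for shZMAT2-1 (all genes, -0.05) and -0.41 for shZMAT2-2 (all genes, -0.15). The shZMAT2-2 median was above 0 without control replicate 1, at 0.13, without control replicate 3, at 0.12, and without shZMAT2-2 replicate 1, at 0.08. Without control replicate 2, estimates above 0 numbered 3 of 27 for the mean of both arms, 16 of 27 for shZMAT2-1 and 3 of 27 for shZMAT2-2. No gene of the 27 passed the adjusted threshold without it either, the smallest adjusted p of the mean contrast being 0.0932 for INSIG1 (limma, Benjamini-Hochberg). Of all genes tested, 1.33% passed without control replicate 2 for the mean of both arms, 0.293% for shZMAT2-1 and 2.4% for shZMAT2-2. At an unadjusted p under 0.05 the counts without it were 5 of 27 for the mean of both arms, where 16% of all genes tested had one, 2 for shZMAT2-1, where 8.94% had one, and 15 for shZMAT2-2, where 29.5% had one. All of these estimates were below 0. The controls kept there had mitochondrial shares of 7.86% and 8.28%, against 14.5% to 26.99% in shZMAT2-2. For shZMAT2-2 against control the mitochondrial share and the arm therefore cannot be told apart in that setting. The 5 genes of the mean contrast were CYP51A1, LBR, HSD17B7, INSIG1 and NPC1, and the 2 of shZMAT2-1 were LBR and INSIG1. Leaving out any 1 other library gave 0 or 1 for the mean of both arms, where 4.96% to 6.88% of all genes tested had one. It gave 0 to 5 for shZMAT2-1 (all genes, 2.98% to 9.54%) and 0 for shZMAT2-2 (all genes, 4.25% to 8.06%). The 5 were without control replicate 1 and all above 0, where 6.95% of all genes tested had such a p. The 6 knockdown libraries lay wholly above or below the 3 controls for 0 of the 27 genes, where 4.69% of all genes tested lay above and 0.685% below. The shZMAT2-1 libraries alone lay above the controls for 4 of 27 genes, IDI1, MSMO1, SREBF2 and INSIG2, where 9.1% of all genes tested did. They lay below for 0 genes (all genes, 1.83%). The shZMAT2-2 libraries lay above for 0 of 27 (all genes, 11.9%) and below for 0 (all genes, 1.52%).

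**Figure D2:**
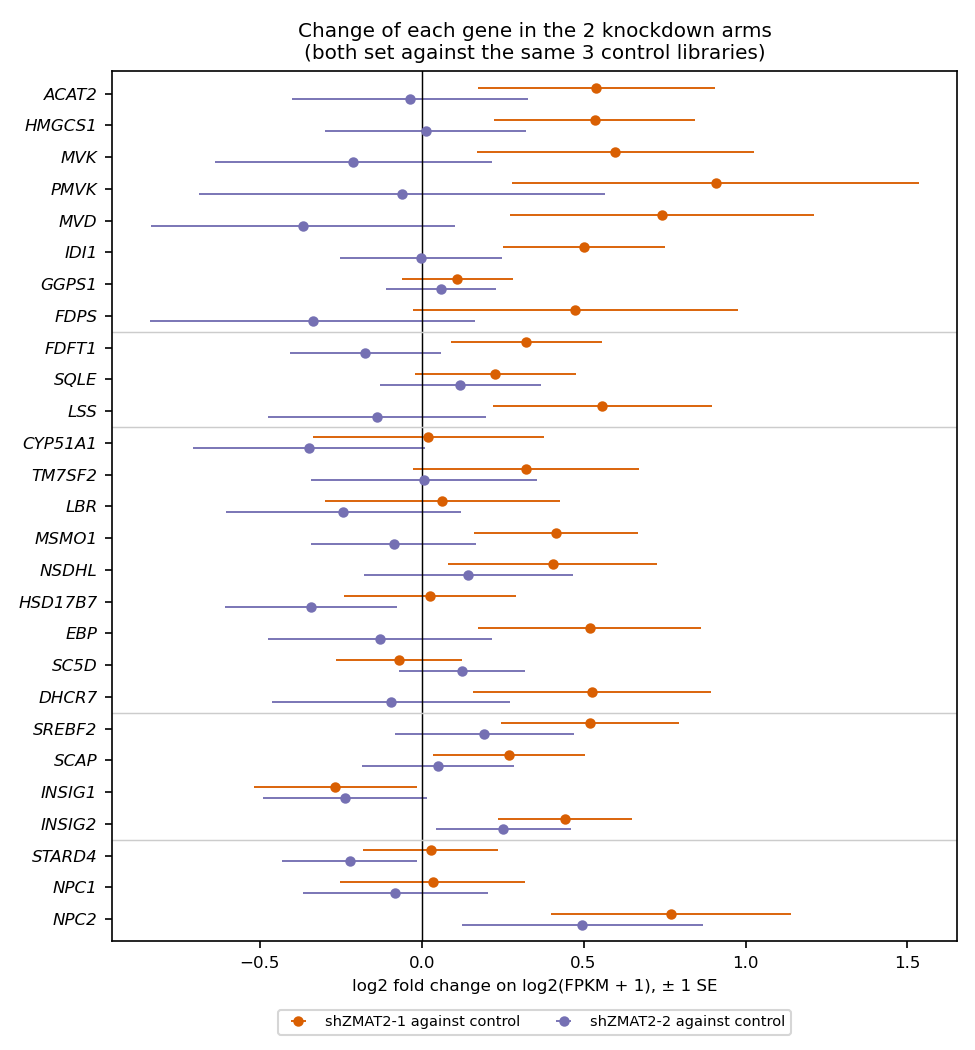
Log2 fold change of each gene on log2(FPKM + 1), with bars of 1 SE, for shZMAT2-1 and for shZMAT2-2 against the same 3 control libraries. Estimates run from -0.27 for INSIG1 to 0.91 for PMVK in shZMAT2-1 and from -0.37 for MVD to 0.50 for NPC2 in shZMAT2-2, and none passed the adjusted threshold.

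The 3 smallest p-values of the mean contrast belonged to NPC2 and to 2 of the 4 genes of SREBP2 control, INSIG2 and SREBF2. SREBF2, the gene of the transcription factor itself, had 41.1, 35.5 and 41.2 FPKM in shZMAT2-1, 25.8, 33.7 and 34.5 FPKM in shZMAT2-2, and 34.6, 17.1 and 33.3 FPKM in control. All 3 shZMAT2-1 libraries lay above all controls, though replicate 2 by little, and the shZMAT2-2 libraries were among the controls. Its log2 fold change was 0.52 (SE 0.28) in shZMAT2-1 and 0.19 (SE 0.28) in shZMAT2-2, with limma adjusted p of 0.805 and 0.9995. For the mean of both arms it was 0.36 (SE 0.24, limma adjusted p = 0.999), and without control replicate 2 it was 0.04 (SE 0.15).

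INSIG2, which holds SCAP in the endoplasmic reticulum and is not itself induced by SREBP2, had 6.51, 5.36 and 6.55 FPKM in shZMAT2-1. It had 4.58, 5.62 and 5.59 FPKM in shZMAT2-2 and 5.09, 2.89 and 5.08 FPKM in control. The shZMAT2-1 libraries were all above the controls, and 1 shZMAT2-2 library fell between control values. The mean of both arms differed from control by 0.35 (SE 0.18, limma adjusted p = 0.844), and by 0.13 (SE 0.12) without control replicate 2. INSIG1, its relative that is a target of SREBP2, had 20.8, 18.3 and 23.2 FPKM in shZMAT2-1. It had 19.1, 22.4 and 22.03 FPKM in shZMAT2-2, and 30.8, 16.4 and 30.9 FPKM in control. Here control replicates 1 and 3 stood above all 6 knockdown libraries and control replicate 2 stood below them. Its estimate was -0.25 (SE 0.22, limma adjusted p = 0.999), and -0.54 (SE 0.13, limma adjusted p = 0.0932) without control replicate 2. SCAP had the smallest estimate of the 4 in the mean contrast, 0.16 (SE 0.20), with means of 27.2 ± 2.62 FPKM in shZMAT2-1, 23.2 ± 2.94 FPKM in shZMAT2-2 and 22.9 ± 6.27 FPKM in control (SD, n = 3 each).

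The promoters of SREBF2, INSIG1 and INSIG2 are shown because these 3 genes carry the feedback loop, and the 2 INSIG genes had estimates of opposite sign. They are the RefSeq windows (GRCh38.p14) of 250 bases before to 50 after a gene start, at chr22:41832855-41833154 on the plus strand, chr7:155297628-155297927 on the plus strand and chr2:118088221-118088520 on the plus strand. Capitals mark 3 motifs searched on both strands: the sterol regulatory element core TCACNCCAC, the CCAAT box (CCAAT) and the GC box (GGGCGG), where neighbouring GC boxes can share bases.
SREBF2: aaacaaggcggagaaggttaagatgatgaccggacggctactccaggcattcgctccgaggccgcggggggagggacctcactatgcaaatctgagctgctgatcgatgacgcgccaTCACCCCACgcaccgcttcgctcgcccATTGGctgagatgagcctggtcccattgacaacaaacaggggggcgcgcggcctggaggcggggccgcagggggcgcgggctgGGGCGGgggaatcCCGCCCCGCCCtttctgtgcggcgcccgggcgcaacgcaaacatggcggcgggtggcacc
INSIG1: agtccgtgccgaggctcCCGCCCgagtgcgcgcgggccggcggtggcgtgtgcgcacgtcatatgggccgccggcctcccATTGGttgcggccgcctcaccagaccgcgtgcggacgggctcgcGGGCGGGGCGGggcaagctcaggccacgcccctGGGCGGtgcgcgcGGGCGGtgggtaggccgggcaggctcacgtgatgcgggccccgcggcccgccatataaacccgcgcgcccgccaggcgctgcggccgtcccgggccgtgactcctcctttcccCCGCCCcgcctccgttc
INSIG2: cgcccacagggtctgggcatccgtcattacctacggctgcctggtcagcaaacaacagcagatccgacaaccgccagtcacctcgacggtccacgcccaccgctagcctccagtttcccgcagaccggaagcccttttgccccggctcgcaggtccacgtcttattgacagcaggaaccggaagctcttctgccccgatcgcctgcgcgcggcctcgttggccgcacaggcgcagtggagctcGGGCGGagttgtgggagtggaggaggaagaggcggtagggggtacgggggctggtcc
Of the 27 genes, 24 had a window in the RefSeq table. The sterol element core was found in 1 of 24, SREBF2, where it lies 133 bases before the start, against 1.39% of 27305 genes in the table. A CCAAT box was present for 18 of 24 genes (75%), against 39.7% of genes in the table, and a GC box for 22 of 24 (91.7%), against 48.3%. A gene was counted if any of its windows matched, and the genes of the table were not limited to expressed ones. In the windows shown, INSIG1 had 1 CCAAT box and 6 GC boxes, and INSIG2 had no CCAAT box and 1 GC box. INSIG2 has 2 starts in the table, and only 1 window is shown. These are matches of letters within 300 bases and not evidence of binding. The lack of a match to these letters is likewise no evidence that a gene has no such element.

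Of the 8 enzymes from acetyl-CoA to the isoprenoid diphosphates, none passed the test in any contrast. ACAT2, which joins acetyl-CoA units at the entry to the pathway, had 93.0, 66.1 and 92.1 FPKM in shZMAT2-1, 46.2, 58.7 and 62.0 FPKM in shZMAT2-2, and 78.7, 29.2 and 78.4 FPKM in control. Both arms overlapped the controls. Control replicate 2 was the lowest of the 9, and shZMAT2-1 replicate 2 and all of shZMAT2-2 lay between it and the other controls. Its estimates were 0.54 (SE 0.37) in shZMAT2-1 and -0.04 (SE 0.37) in shZMAT2-2. HMGCS1, the synthase of the next condensation, averaged 74.4 ± 6.94 FPKM in shZMAT2-1, 51.8 ± 8.31 FPKM in shZMAT2-2 and 54.3 ± 21.4 FPKM in control (SD, n = 3 each).

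The 3 enzymes that phosphorylate and decarboxylate mevalonate spread widely between libraries of 1 group. MVD, the decarboxylase, had 63.9, 26.9 and 60.7 FPKM in shZMAT2-1, 15.7, 22.3 and 27.6 FPKM in shZMAT2-2, and 40.9, 12.9 and 40.0 FPKM in control. Replicate 2 of shZMAT2-1 had less than replicate 3 of shZMAT2-2, so even the arms overlapped. PMVK, phosphomevalonate kinase, spanned 16.3 to 52.6 FPKM in shZMAT2-1, 11.5 to 23.2 FPKM in shZMAT2-2 and 5.85 to 33.3 FPKM in control. MVK, mevalonate kinase, spanned 6.19 to 12.1 FPKM, 3.52 to 6.51 FPKM and 2.36 to 9.37 FPKM in the same groups. PMVK had the largest standard error of the 27 genes, 0.54 in the mean contrast, where its estimate was 0.42.

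Past mevalonate, IDI1 isomerises isopentenyl diphosphate, and FDPS and GGPS1 build the longer prenyl diphosphates. IDI1 had 37.3, 30.2 and 39.9 FPKM in shZMAT2-1, 22.1, 25.9 and 26.7 FPKM in shZMAT2-2, and 30.2, 16.8 and 30.1 FPKM in control. The shZMAT2-1 libraries lay above the controls, replicate 2 by less than 0.1 FPKM, and the shZMAT2-2 libraries lay between control replicate 2 and the other controls. The estimate in shZMAT2-1 was 0.50 (SE 0.25, limma adjusted p = 0.805). FDPS averaged 52.0 ± 18.4 FPKM in shZMAT2-1, 28.6 ± 8.30 FPKM in shZMAT2-2 and 41.3 ± 23.4 FPKM in control (SD, n = 3 each). GGPS1, the lowest of the group, had 5.26, 4.24 and 4.32 FPKM in shZMAT2-1, 4.07, 4.33 and 4.81 FPKM in shZMAT2-2, and 4.70, 3.32 and 4.64 FPKM in control. Its estimate was 0.08 (SE 0.15), and it turned to -0.025 under median-of-ratios scaling.

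Squalene and lanosterol are made by FDFT1, SQLE and LSS, none of which passed the test in any contrast. FDFT1, squalene synthase, had 58.8, 51.3 and 58.2 FPKM in shZMAT2-1, 34.7, 40.6 and 43.4 FPKM in shZMAT2-2, and 51.7, 32.2 and 53.2 FPKM in control. The arms did not overlap each other, and each overlapped the controls. LSS, lanosterol synthase, had 30.51, 21.2 and 30.3 FPKM in shZMAT2-1, 12.9, 17.6 and 18.9 FPKM in shZMAT2-2, and 25.4, 9.77 and 23.2 FPKM in control, the same layout. SQLE, squalene epoxidase, averaged 34.5 ± 3.70 FPKM in shZMAT2-1, 31.9 ± 3.22 FPKM in shZMAT2-2 and 30.2 ± 9.06 FPKM in control (SD, n = 3 each).

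From lanosterol to cholesterol, 9 enzymes were measured and none passed. DHCR7, which makes cholesterol from its last precursor in this branch, was the highest, with 91.4, 65.0 and 91.0 FPKM in shZMAT2-1. It had 41.2, 56.6 and 62.4 FPKM in shZMAT2-2, and 79.0, 29.6 and 76.0 FPKM in control. MSMO1, a sterol methyl oxidase, had 79.0, 70.7 and 80.8 FPKM in shZMAT2-1, 47.0, 55.3 and 60.2 FPKM in shZMAT2-2, and 69.9, 39.2 and 68.5 FPKM in control. For both genes shZMAT2-2 lay between control replicate 2 and the other controls, and for MSMO1 shZMAT2-1 lay above all controls. EBP, a sterol isomerase, averaged 76.2 ± 27.2 FPKM in shZMAT2-1, 46.6 ± 10.3 FPKM in shZMAT2-2 and 52.2 ± 16.1 FPKM in control, and NSDHL, a sterol dehydrogenase, 27.999 ± 4.72, 23.4 ± 5.54 and 22.1 ± 8.80 FPKM in the same groups (SD, n = 3 each).

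HSD17B7, a sterol ketoreductase, had 3.69, 2.21 and 3.85 FPKM in shZMAT2-1, 1.86, 2.19 and 2.71 FPKM in shZMAT2-2, and 4.33, 1.75 and 3.72 FPKM in control. Its estimate in shZMAT2-2 was -0.34 (SE 0.26, limma adjusted p = 0.9995), with control replicate 2 below all 3 shZMAT2-2 libraries. CYP51A1, lanosterol demethylase, had 1.55, 1.08 and 2.27 FPKM in shZMAT2-1, 0.650, 1.65 and 0.839 FPKM in shZMAT2-2, and 2.74, 0.356 and 2.27 FPKM in control. At these levels its replicates spread over more than its groups did. SC5D, the desaturase before DHCR7, moved least in control replicate 2: its 3 control values spanned 6.44 to 7.75 FPKM, against 5.65 to 9.07 FPKM in shZMAT2-1 and 7.49 to 8.73 FPKM in shZMAT2-2.

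TM7SF2 and LBR both encode sterol reductases for the same double bond, and LBR also anchors chromatin at the nuclear envelope. TM7SF2 had 8.58, 5.69 and 8.23 FPKM in shZMAT2-1, 4.90, 5.38 and 7.15 FPKM in shZMAT2-2, and 8.40, 2.57 and 8.02 FPKM in control. LBR had 21.4, 22.8 and 24.0 FPKM in shZMAT2-1, 15.4, 23.6 and 16.5 FPKM in shZMAT2-2, and 31.4, 10.6 and 29.97 FPKM in control. LBR in the knockdown libraries lay between control replicate 2 and the other 2 controls in all 6, and TM7SF2 in all but shZMAT2-1 replicates 1 and 3.

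Among the sterol carriers, NPC2, which binds cholesterol in the lysosome lumen, had the largest estimate of the mean contrast. It had 13.04, 7.66 and 13.9 FPKM in shZMAT2-1, 7.93, 8.97 and 10.52 FPKM in shZMAT2-2, and 8.99, 2.74 and 8.77 FPKM in control. The 2 high shZMAT2-1 libraries and shZMAT2-2 replicate 3 stood above all controls, and the other 3 knockdown libraries lay among them. The log2 fold change was 0.63 (SE 0.32, limma adjusted p = 0.829), and it was 0.17 (SE 0.21) without control replicate 2. NPC1, the lysosomal membrane protein that takes cholesterol over from NPC2, had 7.62, 7.20 and 8.12 FPKM in shZMAT2-1, 5.87, 8.62 and 6.68 FPKM in shZMAT2-2, and 10.2, 4.12 and 9.48 FPKM in control. STARD4, a soluble sterol carrier, had 6.96, 8.45 and 8.12 FPKM in shZMAT2-1, 6.21, 7.89 and 5.35 FPKM in shZMAT2-2, and 9.11, 5.78 and 8.42 FPKM in control. Their estimates were -0.02 (SE 0.25) and -0.10 (SE 0.18), and both are within their error; STARD4 changed sign without control replicate 1, and NPC1 without any 1 of shZMAT2-2 replicate 1, control replicate 1 and control replicate 3.

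Ratios of 2 genes within a library remove the scale of that library, and they were computed for the 3 pairs after the values had been seen. INSIG1 over INSIG2 was 3.19, 3.42 and 3.55 in shZMAT2-1, 4.17, 3.98 and 3.94 in shZMAT2-2, and 6.06, 5.69 and 6.09 in control. All 6 knockdown libraries lay below all 3 controls, control replicate 2 included. The mean log2 ratio was lower in the knockdown libraries by a difference of -0.69, with p = 0.0119 (exact two-sided permutation test, the smallest possible) and 0.0357 after adjustment over the 3 pairs. Leaving out any 1 library kept it between -0.72 and -0.65. NPC2 over NPC1 was 1.71, 1.06 and 1.71 in shZMAT2-1, 1.35, 1.04 and 1.57 in shZMAT2-2, and 0.880, 0.665 and 0.926 in control. Again no knockdown library fell to the level of a control, and the log2 difference was 0.76 (exact permutation p = 0.0238, adjusted 0.0357). Without control replicate 2 it was 0.61 with an exact permutation p of 0.0714, where 2 controls against 6 allow no p under 0.0357. LBR over TM7SF2 overlapped between groups, at 2.49 to 4.01 in shZMAT2-1, 2.31 to 4.39 in shZMAT2-2 and 3.74 to 4.14 in control, with a log2 difference of -0.31 (exact permutation p = 0.202). A ratio shows unequal levels and not which of its 2 genes moved. Lengths and GC content differ within the pairs, with 1436 bases and 44.3% for NPC2 against 5157 bases and 50.3% for NPC1, and 3010 bases and 46.0% for INSIG1 against 2590 bases and 36.9% for INSIG2. The part of these properties in the ratios was not tested. Ratios were computed for these 3 pairs only, so the share of other gene pairs that separate the groups in this way is not known.

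**Figure D3:**
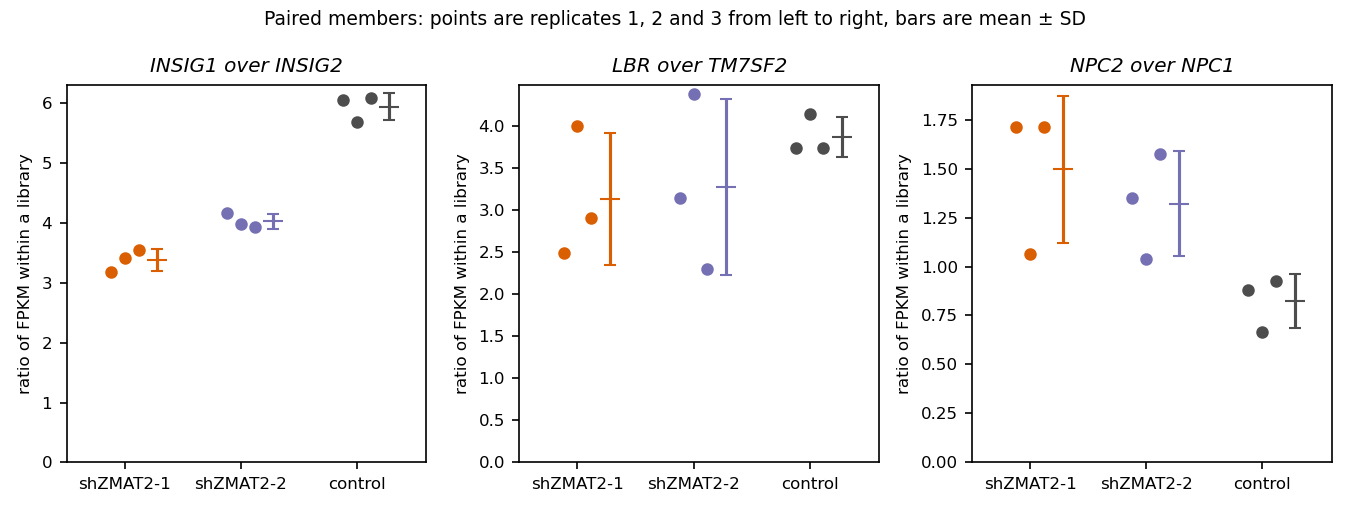
Ratio of FPKM within each library for the 3 gene pairs, 1 point per library with mean and SD of each group of 3. INSIG1 over INSIG2 is 3.19 to 4.17 in the knockdown libraries and 5.69 to 6.09 in control, NPC2 over NPC1 is 1.04 to 1.71 and 0.665 to 0.926, and LBR over TM7SF2 overlaps.

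The 2 arms were also set against each other. The control libraries do not enter these estimates, but they share in the estimate of the spread. Of the 27 genes, 0 passed the adjusted threshold for shZMAT2-2 against shZMAT2-1, where 0% of all genes did. At an unadjusted p under 0.05 there was 1, MVD, against 4.14% of all genes tested. Without control replicate 2 the estimates were the same and 12 of 27 had such a p, all lower in shZMAT2-2, where 23.7% of all genes tested had one. Without shZMAT2-1 replicate 2 there were 4, where 17.8% of all genes tested had one. Leaving out any 1 other library gave 0 or 1 (all genes, 1.18% to 3.87%). MVD was at 21.9 ± 5.97 FPKM in shZMAT2-2 and 50.5 ± 20.5 FPKM in shZMAT2-1 (SD, n = 3 each), a log2 fold change of -1.11 (SE 0.47, limma adjusted p = 0.657). Its SE without control replicate 2 was 0.32 (limma adjusted p = 0.203). The next were FDFT1 at -0.50 (SE 0.23) and LSS at -0.70 (SE 0.34), with the same limma adjusted p. The median estimate of the 27 genes was -0.37 (all genes tested, -0.09). Estimates were above 0 for 2 of 27, SC5D and INSIG1, and for 38.9% of all genes. With control replicate 2 and shZMAT2-1 replicate 2 both left out, 18 of 27 passed, 17 lower and SC5D higher in shZMAT2-2, where 29.1% of all genes tested passed as lower and 42.3% in either direction. That comparison has 2 shZMAT2-1 libraries with mitochondrial shares of 8.25% and 7.70%, while those of shZMAT2-2 were 14.5% to 26.99%. The mitochondrial share and the arm cannot be told apart there. In the same setting 14 of 27 were lower in shZMAT2-2 than in control, where 23.5% of all genes tested passed as lower. The controls kept there had mitochondrial shares of 7.86% and 8.28%, so share and arm cannot be told apart in that comparison either.

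FPKM values of the 27 genes moved with the mitochondrial share inside groups. FPKM are relative to the size of the library, so a larger mitochondrial share by itself lowers the values of other genes. How much of the shift comes from the unit was not tested. Against the other 2 controls, control replicate 2 was lower for all 27 genes, by a median of -1.08 on log2(FPKM + 1), from -2.23 for PMVK to -0.21 for SC5D. Over all genes tested the median was -0.60, and 87.3% were lower. Replicate 1 of shZMAT2-2 was lower than its group for all 27 genes, with a median of -0.30 (all genes, -0.19). Replicate 2 of shZMAT2-1 was lower for 22 of 27, with a median of -0.34 (all genes, -0.08). The shift was larger for GC-rich transcripts, with Spearman's rho across the 27 genes of -0.65 in shZMAT2-1 replicate 2, -0.68 in shZMAT2-2 replicate 1 and -0.51 in control replicate 2. Across 10262 genes it was -0.53, -0.54 and -0.35. The shift also went with transcript length, shorter transcripts being lowered more. In the same order of libraries, rho with length was 0.57, 0.15 and 0.24 across the 27 genes. Across the 10262 genes it was 0.57, 0.34 and 0.36. Whether GC content or length bears on the shift was not tested. Genes are not independent replicates, and all 3 sets of points come from a single library each. PMVK, MVD, MVK and FDPS, with GC contents of 59.5%, 65.6%, 59.4% and 55.1%, moved most in control replicate 2 and in shZMAT2-2 replicate 1 on this scale, which shrinks changes of low genes. As a plain ratio of FPKM to the other libraries of the group, CYP51A1, with a GC content of 41.5%, moved most in both, at 0.142 in control replicate 2 and 0.523 in shZMAT2-2 replicate 1.

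**Figure D4:**
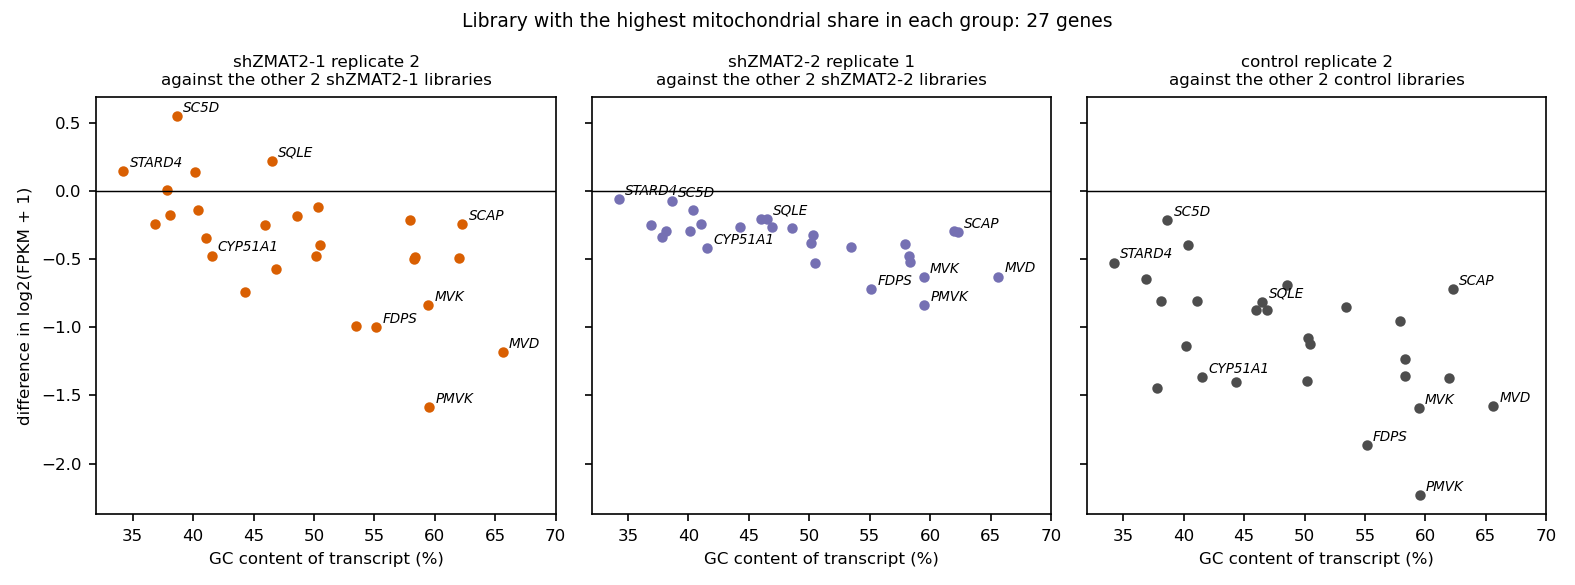
Difference in log2(FPKM + 1) between the library with the highest mitochondrial share of each group and the other 2 libraries of that group, against the GC content of the transcript in percent, 1 point per gene. Points fall from left to right in all 3 panels, and in control replicate 2 every gene is below 0.

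A fit with the mitochondrial share as a covariate reduced the standard errors of the 27 genes to between 0.07 and 0.15 in the mean contrast. Of the 27 genes, 4 then passed, where 9.75% of all genes tested did. NPC2 was higher by 0.60 (SE 0.10, adjusted p = 0.00495), INSIG2 by 0.33 (SE 0.07, adjusted p = 0.0175) and SREBF2 by 0.33 (SE 0.08, adjusted p = 0.0263) in the knockdown arms, by limma. INSIG1 was lower, at -0.27 (SE 0.07, limma adjusted p = 0.0482). By arm, 2 genes passed in shZMAT2-1, NPC2 at 0.50 and INSIG1 at -0.43, where 3.73% of all genes did. In shZMAT2-2 they were NPC2 at 0.70 and INSIG2 at 0.35, where 9.84% did. Control replicate 2 was part of these fits, and the covariate was not tested without it. With that library left out and no covariate, the shZMAT2-2 estimates were 0.03 (SE 0.23) for NPC2 and 0.04 (SE 0.14) for INSIG2. Those of shZMAT2-1 were 0.30 (SE 0.23) for NPC2 and -0.56 (SE 0.14) for INSIG1. None of the 20 synthesis enzymes passed with the covariate in either arm. With median-of-ratios scaling beside the covariate SREBF2 no longer passed, at 0.22 (SE 0.06, limma adjusted p = 0.0598). NPC2, INSIG2 and INSIG1 still passed in the mean contrast, where 9% of all genes tested did. By arm, NPC2 then missed the threshold in shZMAT2-1, at 0.46 (limma adjusted p = 0.0864), and INSIG2 in shZMAT2-2, at 0.21 (limma adjusted p = 0.138). INSIG1 passed in both arms, at -0.48 in shZMAT2-1 and -0.29 in shZMAT2-2 (limma adjusted p = 0.0111 and 0.0481). INSIG1 was also lower in the mean contrast without control replicate 2 and shZMAT2-1 replicate 2, at -0.50 (SE 0.12, limma adjusted p = 0.0399). It was then the 1 gene of 27 that passed, where 4.1% of all genes did. By arm it missed the threshold in shZMAT2-1, at -0.47 (limma adjusted p = 0.121), and passed in shZMAT2-2, at -0.53 (limma adjusted p = 0.0121). For shZMAT2-2 the mitochondrial share and the arm cannot be told apart in that setting.

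**Figure D5:**
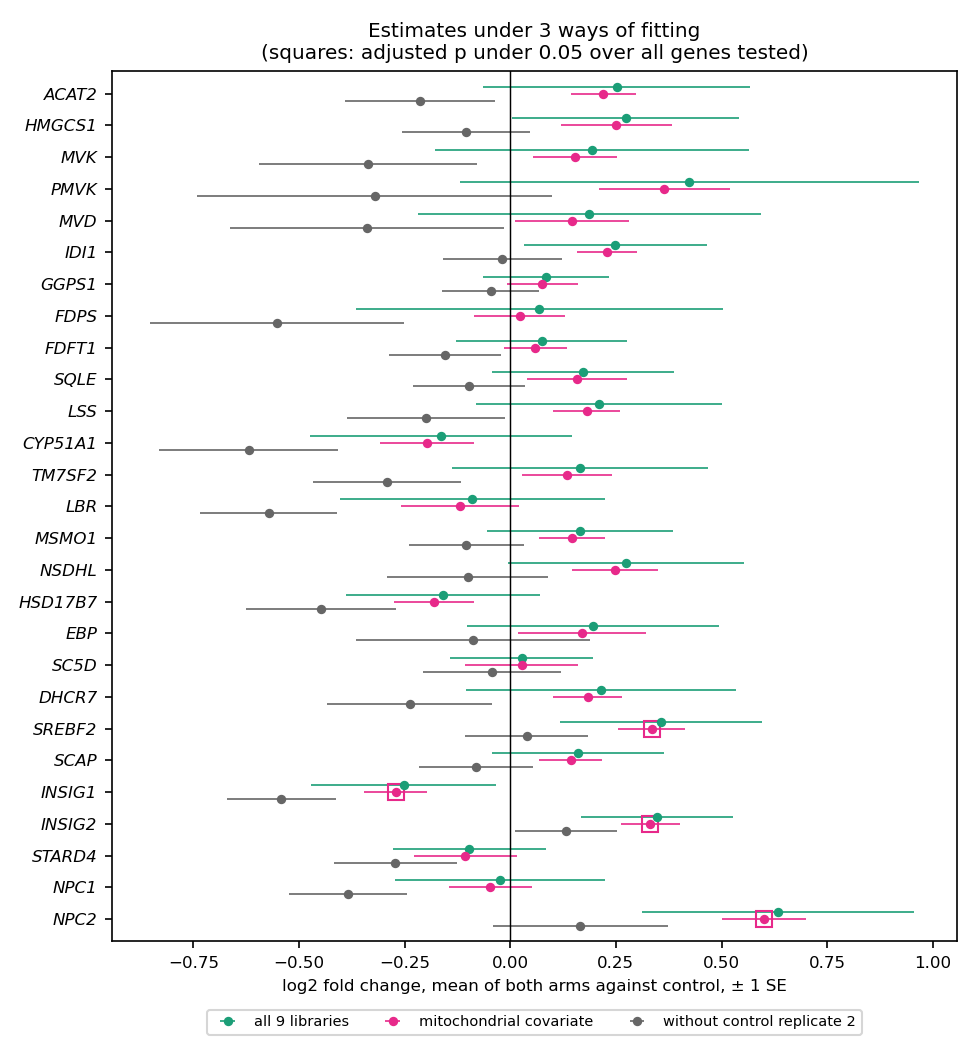
Log2 fold change of each gene for the mean of both arms against control, with bars of 1 SE, from all 9 libraries, with the mitochondrial covariate and without control replicate 2. Squares mark the 4 genes that passed with the covariate, NPC2, INSIG2, SREBF2 and INSIG1, and leaving out control replicate 2 moves all 27 estimates to the left.

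Neighbouring pathways were described from 4 lists holding 64 genes, of which 52 were tested. In the mean contrast 0 passed, also at an unadjusted p under 0.05. Of all genes tested, 0.542% passed in that contrast and 6.93% had an unadjusted p under 0.05. In shZMAT2-1 against control, 1 of 52 had an unadjusted p under 0.05, where 5.76% of all genes tested did, and 0 passed. It was SOAT2, which esterifies cholesterol, at 0.82 (SE 0.35, limma adjusted p = 0.805). In shZMAT2-2 against control, 4 of 52 had an unadjusted p under 0.05, where 7% of all genes tested did, and 0 passed. All 4 were lower: PLTP, a phospholipid transfer protein of plasma lipoproteins, CYP39A1, an oxysterol hydroxylase, RNF145, a ubiquitin ligase, and MYLIP, the ubiquitin ligase that removes lipoprotein receptors. PLTP had 11.1, 6.14 and 10.04 FPKM in shZMAT2-1, 3.81, 4.79 and 6.26 FPKM in shZMAT2-2, and 15.5, 5.02 and 15.0 FPKM in control. CYP39A1 had 2.63, 1.75 and 2.80 FPKM in shZMAT2-1, 1.45, 2.18 and 1.78 FPKM in shZMAT2-2, and 4.52, 1.67 and 4.56 FPKM in control. For both genes control replicates 1 and 3 stood above all 6 knockdown libraries, and control replicate 2 was among them. In shZMAT2-2 the log2 fold changes were -0.99 (SE 0.38) for PLTP and -0.64 (SE 0.28) for CYP39A1, with limma adjusted p of 0.583 and 0.697.

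In the list of SREBP processing and sterol-regulated degradation, 0 of 17 tested genes passed, with a median estimate of 0.09 in the mean contrast. RNF145 was at -0.32 (SE 0.20). In the prenyl and dolichol branches, 0 of 14 passed, with a median of 0.15 and DHDDS, which makes dolichol precursors, at 0.37 (SE 0.19), RABGGTA, a Rab prenyltransferase subunit, at 0.26 (SE 0.18) and COQ2, of ubiquinone synthesis, at 0.26 (SE 0.19). Of esterification, efflux and oxysterol genes 0 of 10 passed, with a median of 0.23, CYP39A1 at -0.50 (SE 0.24), NCEH1, a cholesteryl ester hydrolase, at 0.36 (SE 0.18) and MYLIP at -0.25 (SE 0.13). Of lipoprotein uptake and sterol transfer genes 0 of 11 passed, with a median of 0.08, PLTP at -0.62 (SE 0.33) and OSBPL9, an oxysterol-binding protein relative, at 0.21 (SE 0.15). The median over all genes tested in this contrast was 0.10. Without control replicate 2 the estimates of the genes with values above 0 were smaller, at 0.14 for DHDDS, 0.05 for RABGGTA, 0.01 for COQ2, 0.18 for NCEH1 and 0.12 for OSBPL9. Those below 0 were larger in size, at -1.10 for PLTP, -0.86 for CYP39A1, -0.59 for RNF145 and -0.37 for MYLIP. With the mitochondrial covariate 5 of 52 passed, 3 lower and 2 higher, where 9.75% of all genes tested passed. PLTP at -0.65, CYP39A1 at -0.53 and RNF145 at -0.34 were lower, and DHDDS at 0.36 was among the higher.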

How the data were processed

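The authors prepared strand-specific poly(A) libraries from Huh7 RNA, 9 in 3 groups, per the labels' protocols. The deposited values are FPKM per gene, computed by the authors, and all 9 columns were used. The submitters' processing notes name HISAT, featureCounts and DESeq2, with no versions. The genome build of the files is not stated. Depth was recovered from 1633 single-exon genes, whose values were whole fragments within 0.1 for 99.9% to 100% of values per library.

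The filter kept 11245 genes that reached 1 FPKM in 3 libraries or more. They were fitted with limma 3.58.1 (R 4.3.3) on log2(FPKM + 1), with a trend and the group as the only term over all 9 libraries. Changes of genes with low values come out too small on this scale. Calls were made where the two-sided p, adjusted by Benjamini-Hochberg over all genes tested, was under 0.05. No count test was run on the deposited FPKM. The covariate was the logarithm of the summed FPKM of 13 genes of the mitochondrial genome. Alternatives were a pseudocount of 0.1, no filter or one of 5 FPKM, median-of-ratios, TPM and nuclear scaling, a replicate block, the covariate, a fit on only the groups compared and leaving out each library. The procedure was tested on simulated data. There the mean contrast recovered 4.2% of log2 changes of 0.5, 51.8% of 1, 89% of 2 and 99% of 3. Changes of 0.5 or less would therefore mostly be missed.

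The 27 genes and the gene lists were chosen with earlier results of these data known. Values per library were given for ZMAT2, for genes with the 3 smallest p in a contrast, for the highest and lowest gene of each role, for the 3 pairs and, in addition, for genes whose arm did not overlap the control. From each neighbouring list the genes with the 3 smallest p were named, except that some genes are not reported here. Sequences are RefSeq promoter windows, and 24 of 27 genes matched by symbol. Remaining steps used Python 3.11.15 with numpy 2.4.6, scipy 1.17.1, pandas 2.3.3 and, for plots, matplotlib 3.10.9.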

Additional observations from a re-analysis of the deposited data

How the results depend on the processing

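The count of 0 genes passing among the 27 was also 0 in every contrast under another pseudocount and other filters. It was also 0 under median-of-ratios, TPM and nuclear scaling, a fit on only the groups compared, and leaving out each library (0 to 0). The shares of all genes tested were low there too, at 0.00692% to 1.88% for the mean of both arms. They were 0% to 0.708% for shZMAT2-1, 0% to 2.4% for shZMAT2-2, and 0% for shZMAT2-2 against shZMAT2-1. A count of 0 among 27 genes is near such shares. The replicate block also gave 0; same-numbered libraries correlated between -0.76 and 0.78, so the numbers were not taken as pairs. The mitochondrial covariate gave 4 genes for the mean of both arms, 2 for shZMAT2-1 and 2 for shZMAT2-2. Leaving out control replicate 2 and shZMAT2-1 replicate 2, chosen after seeing the data, gave 1 for the mean, 14 for shZMAT2-2 and 18 for shZMAT2-2 against shZMAT2-1. The shares of all genes tested were 4.1%, 30.2% and 42.3%. For the 14 and the 18, and for the part of shZMAT2-2 in the mean, the mitochondrial share and the arm cannot be told apart. Median-of-ratios scaling with the covariate, also chosen afterwards, gave 3, 1 and 2 for the mean, shZMAT2-1 and shZMAT2-2. The shares of all genes tested were 9%, 4.71% and 7.43%. Against the covariate alone, SREBF2 was lost in the mean and NPC2 in shZMAT2-1. In shZMAT2-2 INSIG2 was lost and INSIG1 gained. Of 52 neighbouring genes in the mean contrast, 5 passed with the covariate, where 9.75% of all genes tested did. Without the 2 libraries 4 passed (all genes, 4.1%), and under both scaling and covariate 7 did (all genes, 9%). When 1 library was left out 0 to 1 passed, the 1 being without control replicate 2 (all genes, 1.33%). ZMAT2 was at -0.98 with TPM scaling and between -1.13 and -1.004 when 1 library was left out, past the threshold in some of these and not in others. Some estimates of the mean contrast changed sign. Leaving out 1 library gave -0.21 to 0.49 for ACAT2, -0.046 to 0.15 for GGPS1, -0.15 to 0.20 for FDFT1, -0.20 to 0.45 for LSS, -0.24 to 0.45 for DHCR7, -0.62 to 0.11 for CYP51A1, -0.27 to 0.016 for STARD4, -0.29 to 0.41 for TM7SF2, -0.57 to 0.17 for LBR and -0.38 to 0.18 for NPC1. Without the 2 libraries, ACAT2 was at -0.13, GGPS1 at -0.023, FDFT1 at -0.12, LSS at -0.12, DHCR7 at -0.16 and TM7SF2 at -0.21. GGPS1 was at -0.025 and FDFT1 at -0.060 under median-of-ratios scaling, -0.012 and -0.043 under nuclear scaling, and -0.020 and -0.058 under median-of-ratios scaling with the covariate. LBR was at 0.014 and NPC1 at 0.072 with TPM scaling. The cause was not tested. Precision was limited by 3 libraries per group and by control replicate 2.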
